A study of Mus musculus with 13 samples.

Results

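RBM genes carry the name "RNA-binding motif" and encode proteins that mostly contact RNA through an RNA recognition motif. They were followed here in mouse embryonic fibroblasts cooled from 37°C to 32°C. The members are the genes whose symbol is Rbm with a number and an optional letter, together with Rbmx, Rbms1, Rbms2, Rbms3 and Rbmxl1, without Rbm3 and Rbm39. The rule gave 39 genes, of which 34 had a transcript cluster (the array's set of probes for 1 gene) of their own among the 19938 genes tested. The other 5 (Rbm4, Rbm12, Rbm14, Rbm31y and Rbmxl1) were listed only in clusters shared with another gene and have no value here. The cells were primary mouse embryonic fibroblasts from a commercial source, grown at 37°C in DMEM with 10% serum until subconfluent, with no genetic change or drug stated in the labels. One array, labelled Normothermia at 0 h, is the start of both courses. Hypothermia at 32°C and Normothermia at 37°C then have 1 array each at 0.5, 1, 2, 4, 8 and 18 h, which makes 13 arrays. Each array carries the combined RNA of 3 dishes and no array is repeated, so the errors below come from the spread between time points, and precision is limited by the number of arrays.

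An RNA recognition motif binds a few bases of single-stranded RNA, and the proteins that carry it take part in nearly every step of an RNA's life. Some RBM proteins sit in the spliceosome, which removes introns, and some choose between splice sites. Others lead RNA to methylation, export or decay in the nucleus, work in the nucleolus on ribosomal RNA, or act on mature mRNA. The family is known in cooled cells through Rbm3 and its relative Cirbp, the cold-inducible RNA-binding proteins of mammals, which are not members here. Intensities are the deposited linear values in arbitrary units, and a difference is the log2 value at 32°C minus the log2 value at 37°C of the same time. Intensities of different genes come from different probes, so levels of single genes are not set against each other; the rank of a gene's mean level was used only to check markers and to call genes below the median level dim.

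The arrays were alike in scale, with medians from 145.0 to 149.8 (a spread of 0.046 on the log2 scale). All 10 fibroblast markers lay between the 84.7th and the 99.99th percentile of gene levels, and their summed intensity ranged from 44749 to 49602 at 32°C and from 47918 to 49085 at 37°C. Markers of epithelium, macrophages, endothelium and germ cells lay at or below the 51.6th percentile. The summed intensity of the 5 epithelial markers ranged from 567 to 778 at 32°C and from 552 to 589 at 37°C, and that of the 5 macrophage markers from 414 to 546 and from 388 to 425. Endothelial sums were 293 to 325 and 289 to 325, and germ cell sums 148 to 178 and 145 to 167. The 5 neural markers reached the 86.6th percentile, with sums from 2016 to 2659 at 32°C and from 2636 to 2785 at 37°C. The 5 skeletal muscle markers reached the 93.6th percentile, with sums from 2799 to 3310.0 and from 2967 to 3133. No marker in these lists passed in any comparison, and their part in the results was not tested. Cirbp was 2.99-fold higher at 32°C over 4, 8 and 18 h, by 1.58 ± 0.14 on the log2 scale (SE, n = 3 pairs, adjusted p = 0.00599). Rbm3 differed by 0.10 ± 0.067 (adjusted p = 0.467) and Rbm39 by -0.070 ± 0.088 (adjusted p = 0.730). Rbm3 was not called, but its 32°C values of 4, 8 and 18 h (9293, 9386 and 10192) lay above all 37°C arrays (at most 9212). Among all genes, 6.27% lay above in this way. In the other clusters of Rbm3 these values were 8418, 8616 and 9363 (37°C at most 8253) and 7795, 7931 and 8614 (at most 7782).

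The main question was which RBM transcripts separated between 32°C and 37°C. At 4, 8 and 18 h, called late here, Rbm10 fell to 0.751 of its 37°C value (-0.41 ± 0.076 on the log2 scale, SE, n = 3 pairs), and no other member passed the test in either direction. In cultures of mixed cells, a loss of cells that express a gene and less RNA per cell cannot be told apart. In the divergence from the common start, which fits the 6 differences by a straight line starting from 0 at 0 h, Rbm27 fell (-0.053 ± 0.012 per time point, SE, n = 6 pairs) and no other member passed. Among all genes, 0.802% were higher and 2.15% lower in the late comparison, and 1.17% diverged upward and 1.66% downward, so 1 called member of 34 (2.94%) in each is near the background. The balance of calls depended on the scaling: 160 higher and 428 lower genes late became 207 and 268 with each array centred on its median and 194 and 286 with quantile normalization, and 234 and 331 in divergence became 308 and 274, and 316 and 305. Calls are limma moderated tests with Benjamini-Hochberg adjustment over all 19938 genes at 0.05. The SE of a late difference comes from 1 spread shared by the early and late pairs and moderated over all genes, not from the 3 late pairs alone. The SD of the 3 late differences themselves was 0.17 for Rbm10, 0.24 for Rbmx and 0.026 for Rbm27.

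Below that threshold the RBM genes were still spread on both sides of zero. Late differences were negative for 17 members and positive for 17, between -0.41 (Rbm10) and 0.32 (Rbmx), and their median was 0.011 against 0.0099 over all genes. With each array centred on its median, Rbm20 and Rbm25 moved to the positive side. An unadjusted p under 0.05 was reached by 8 members with lower values, which is 23.5% of the members against 10.8% of all genes, and by 2 with higher values, 5.88% against 7.62%. Among genes above the median level, where all measured members but Rbm11, Rbm20, Rbm44, Rbm46, Rbm47 and Rbm48 lie (28), 17.3% were lower at that p, and all 8 of these members were among the 28. In the 3 late arrays at 32°C, 9 members lay below all 7 arrays at 37°C, namely Rbm4b, Rbm5, Rbm6, Rbm10, Rbm26, Rbm27, Rbm38, Rbm45 and Rbms3. That is 26.5% of the members, against 7.79% of all genes. All 9 were among the 28 members above the median level, where 13.8% of genes lay below. Only Rbm11 lay above all 7 arrays, where 6.27% of all genes and 8.32% of those above the median level did. Of the 28 members above the median level, 0 did. These counts use the deposited scale and were not repeated after rescaling. At 4 h Rbm4b (399.6 against at least 404 at 37°C) and Rbms3 (1979 against at least 1998) were only narrowly below.

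**Figure D1:**
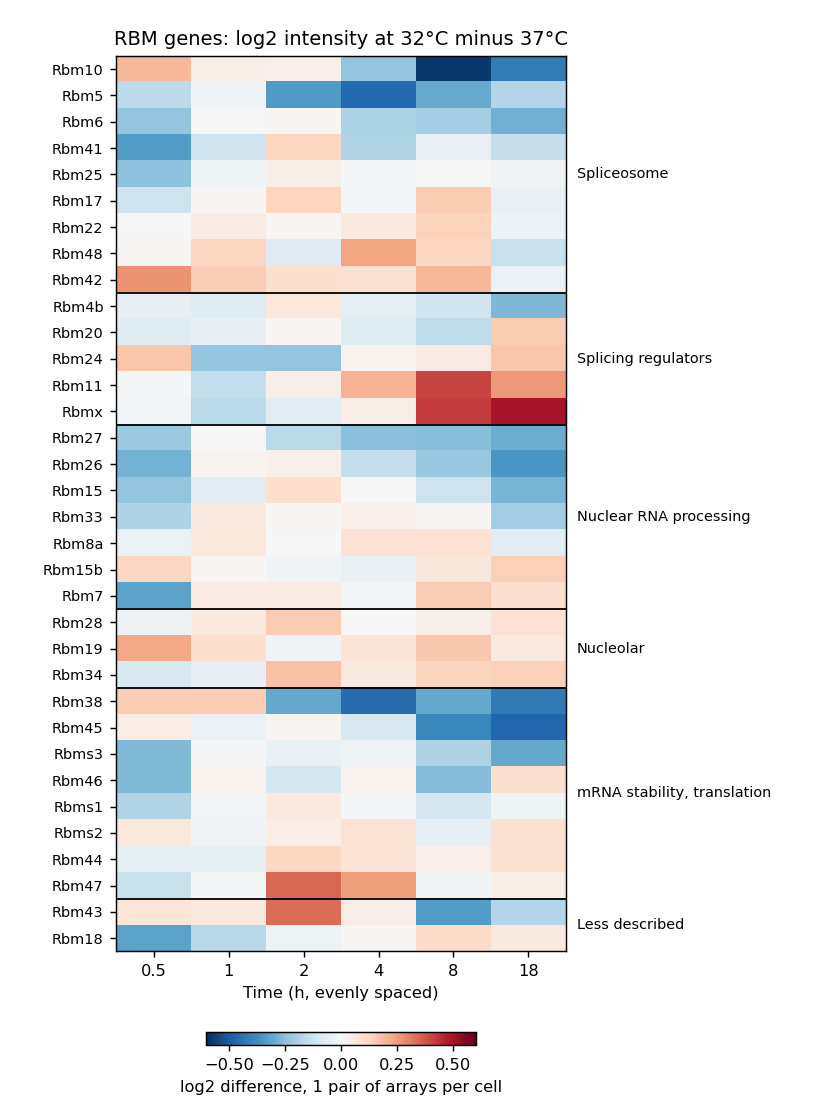
Difference of log2 intensity, 32°C minus 37°C, for each of the 34 RBM genes (vertical axis, grouped by role and ordered by the late difference) at each time (horizontal axis, h), with 1 pair of arrays per cell; blue is lower and red higher at 32°C. The deepest blue is Rbm10 at 8 h (-0.58) and the deepest red is Rbmx at 18 h (0.49).

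The early arrays gave no called member. Over 0.5, 1 and 2 h, 0 of 19938 genes passed in either direction (0%), with 834 higher (4.18%) and 619 lower (3.10%) at an unadjusted p under 0.05, among them Rbm42 (higher) and Rbm18 (lower). At 0.5 h, 23 of 34 members were lower at 32°C while 39.5% of all genes were. At 2 h 11 members were lower and 23 higher, while 46.7% of all genes were lower. No difference of any member passed 1.3-fold at 0.5, 1 or 2 h, against 2.13% to 3.66% of all genes. At 4 h 2 members passed 1.3-fold, and at 8 h and 18 h 4 members did (11.8%), against 4.28%, 5.29% and 9.07% of all genes. Over all 6 pairs no member passed, where 0.0150% of genes were higher and 0.0552% lower, and at an unadjusted p under 0.05 6 members were lower (Rbm5, Rbm6, Rbm26, Rbm27, Rbm38 and Rbms3) and 1 was higher (Rbm42). That is 17.6% and 2.94% of the members, against 6.39% and 7.13% of all genes and 8.94% and 10.4% of those above the median level. The contrast of late minus early differences, added after seeing the data, called 0 of 19938 genes. At an unadjusted p under 0.05 it had 751 positive (3.77%) and 1534 negative (7.69%) genes, of which 3 and 4 were members (8.82% and 11.8% of them).

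The first role group holds 9 members of the spliceosome. Rbm10, Rbm5 and its neighbour Rbm6 are related proteins that join the early spliceosome and influence which exons are kept. Rbm10 had intensities of 377, 349, 352, 337, 349, 364 and 375 at 0, 0.5, 1, 2, 4, 8 and 18 h at 37°C. At 32°C it read 401, 361, 344, 296, 243 and 279.9 at 0.5, 1, 2, 4, 8 and 18 h. The late values at 32°C were thus below every value at 37°C, and the early ones were not. The late difference was -0.41 ± 0.076 (SE, n = 3 pairs, adjusted p = 0.0312), a ratio of 0.751 with all 3 pairs lower. This call was lost without the arrays of 1 h (adjusted p = 0.0548), of 8 h (0.207) or of 18 h (0.112), and with all transcript clusters as units of the test (0.0572). The divergence of Rbm10 was -0.066 ± 0.018 per time point (adjusted p = 0.0766), and the mean of its 3 early differences was 0.089.

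Rbm5 measured 1323, 1313, 1186, 1240.2, 1239.7, 1310.2 and 1265 over the 7 times at 37°C. In the cooled cells it measured 1179, 1168, 981, 898, 1064 and 1119 from 0.5 to 18 h. Rbm5 was lower at 32°C in all 6 pairs, with its lowest value at 4 h and values nearer to 37°C at 8 and 18 h. Its late difference was -0.31 ± 0.080 (adjusted p = 0.0705) and its divergence -0.062 ± 0.015 per time point (adjusted p = 0.0562). Rbm6, whose gene is next to Rbm5 among the protein-coding genes of chromosome 9, read 468, 473 and 452 at 4, 8 and 18 h of 32°C, while its 7 values at 37°C lay between 523 and 566. It had a late difference of -0.23 ± 0.069 (adjusted p = 0.117), and its other transcript cluster gave -0.13. In that cluster the 32°C values of 4 and 18 h (251 and 235) lay below the 37°C range of 275 to 294. The value of 8 h (287) lay within it. All 3 relatives were therefore lower in every late pair, and 1 of them, Rbm10, passed the test.

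The stretches just upstream of Rbm5 and Rbm10 are shown because these relatives were lower together, and this choice was made after their values had been seen. They come from RefSeq's promoter table (GRCm38.p6), which starts from 1 start site of a gene, and only bases upstream of the whole annotated gene are printed. That leaves 150 bases for Rbm5, 104 for Rbm10, and none for Rbm6, whose start in the promoter table lies inside the annotated gene. The letters CCAAT or GGGCGG, on either strand, are in capitals.
Rbm5 (chr9:107771008-107771157, minus strand): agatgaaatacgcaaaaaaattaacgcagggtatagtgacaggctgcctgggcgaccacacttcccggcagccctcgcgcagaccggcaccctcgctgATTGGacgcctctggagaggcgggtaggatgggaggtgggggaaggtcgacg
Rbm10 (chrX:20617253-20617356, plus strand): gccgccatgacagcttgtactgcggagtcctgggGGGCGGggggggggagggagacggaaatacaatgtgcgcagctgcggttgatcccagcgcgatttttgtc
The stretch of Rbm5 held 1 CCAAT, on the strand opposite to the gene, and that of Rbm10 held 1 GGGCGG on the gene's strand. Of the 20 members with all 150 bases upstream of the gene, 7 held CCAAT and 7 held GGGCGG, against 25.7% of the 23796 promoters of that kind for each motif. The ETS core CGGAAG was in 6 of the 20, against 9.56%. The mild cold response element TCCCCGCC, letters described upstream of the Cirbp gene, was in 1 of the 20 (Rbm19), against 2.98%. Counted instead in the 150 bases before the start in the promoter table, the motifs, in the order named, were in 10, 10, 7 and 1 of 29 members, against 24.5%, 28.6%, 10.4% and 3.44% of all 32851 promoters. The reverse complement of TCCCCGCC can share letters with GGGCGG, and a match is a description of these letters only.

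The other 6 spliceosome members gave no called difference. Rbm42, found in the complex that brings the catalytic small nuclear RNAs to the intron, measured 633, 639, 635, 658, 673, 641 and 675 at 37°C. At 32°C it measured 769, 702, 704, 719, 736 and 657. It was above every 37°C value at 0.5 to 8 h and among them at 18 h, and its divergence was 0.022 ± 0.015 per time point (adjusted p = 0.469). Its early difference was 0.17 ± 0.068 (adjusted p = 0.661). Rbm17, which influences the choice of splice site, had a late difference of 0.035, Rbm22, a subunit of the active spliceosome, of 0.054, and Rbm25, a partner of the small nuclear RNA that reads the 5′ splice site, of -0.012. Rbm48 and Rbm41 work with the minor spliceosome, which removes a rare class of introns, and had 0.076 and -0.12. The SE of these late differences was between 0.061 and 0.086.

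**Figure D2:**
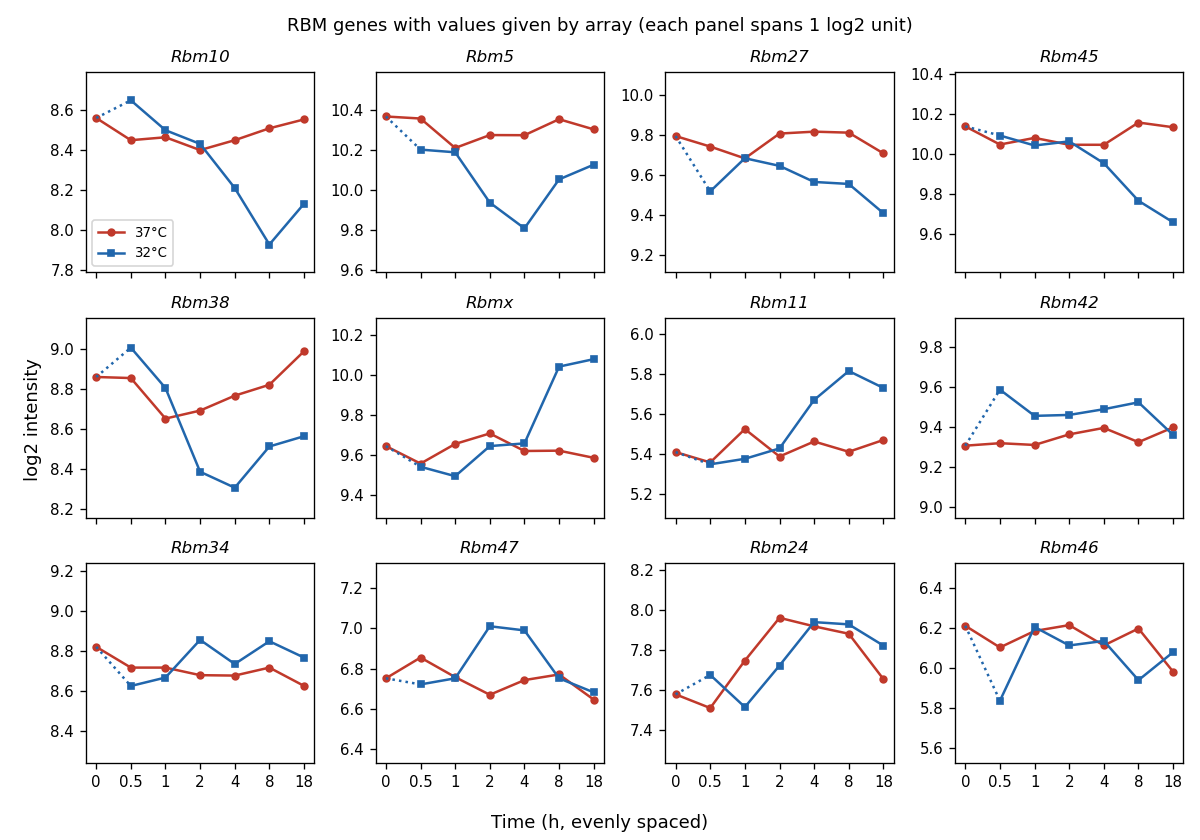
log2 intensity (vertical axis, each panel spanning 1 log2 unit) against time in h (horizontal axis, evenly spaced) for the 12 RBM genes whose values are given by array, at 37°C (red circles) and 32°C (blue squares); each point is 1 array, and the dotted line joins the shared array at 0 h to the first array at 32°C. Rbm10, Rbm5, Rbm27, Rbm45 and Rbm38 end below their 37°C course, and Rbmx and Rbm11 end above it. The courses of Rbm24, Rbm34, Rbm42, Rbm46 and Rbm47 cross, as do some of the others at earlier times.

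Members that choose between splice sites included the 2 largest positive late differences. Rbmx, also called hnRNP G, binds nascent transcripts and influences exon use. It measured 800.2, 753, 806, 836, 787, 788 and 768 at 37°C. In the 32°C arrays its values were 745, 721, 800.2, 808, 1054 and 1081. Rbmx was within the 37°C range up to 4 h apart from lower values at 0.5 and 1 h, and above it at 8 and 18 h, where the ratio to 37°C reached 1.41 at 18 h. The late difference was 0.32 ± 0.088 (adjusted p = 0.0921), and the slope at 32°C was 0.088 ± 0.024 per time point (adjusted p = 0.122). Its divergence was 0.051 ± 0.018 per time point (adjusted p = 0.152). Rbmxl1 is a near-identical copy of Rbmx, and clusters shared by the pair were left out, so signal from the copy on the Rbmx probes cannot be told apart from that of Rbmx.

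Rbm11, a tissue-restricted splicing regulator, was dim, below the median gene level. It read 42.6, 41.1, 46.1, 41.9, 44.1, 42.6 and 44.4 at 37°C. At 32°C the values were 40.8, 41.6, 43.1, 51.0, 56.4 and 53.1. All 3 late values exceeded every value at 37°C. The late difference was 0.29 ± 0.067 (adjusted p = 0.0540) and the divergence 0.046 ± 0.014 per time point (adjusted p = 0.112). The 150 bases upstream of both genes are given in the same form, with CCAAT or GGGCGG in capitals.
Rbmx (chrX:57393047-57393196, minus strand): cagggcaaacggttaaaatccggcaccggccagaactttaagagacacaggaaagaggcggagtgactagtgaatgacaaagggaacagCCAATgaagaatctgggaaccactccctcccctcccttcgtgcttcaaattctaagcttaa
Rbm11 (chr16:75592694-75592843, plus strand): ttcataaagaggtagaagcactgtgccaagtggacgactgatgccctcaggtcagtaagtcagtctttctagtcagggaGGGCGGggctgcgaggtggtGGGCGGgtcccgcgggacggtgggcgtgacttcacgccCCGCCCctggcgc
The stretch of Rbmx held 1 CCAAT and that of Rbm11 held 3 GGGCGG, counting both strands.

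Rbm24, a splicing regulator best known from heart and skeletal muscle, had the steepest slope of all members at 37°C. Its values were 191, 182, 215, 249, 242, 236 and 201 at 37°C. They were 204, 183, 211, 245, 243 and 226 at 32°C. The course at 37°C was highest from 2 to 8 h and that at 32°C at 4 and 8 h, and they overlapped. Its slope was 0.041 ± 0.026 per time point at 37°C (adjusted p = 0.901) and 0.059 ± 0.020 at 32°C (adjusted p = 0.192), and its late difference was 0.078 ± 0.086. Rbm20, a regulator of titin splicing in the heart, had a late difference of -0.025 and is among the dim members. Rbm4b, a near copy of Rbm4, read 399.6, 373 and 357 in the late arrays at 32°C against values between 404 and 441 at 37°C, with a late difference of -0.15 ± 0.066 (adjusted p = 0.275).

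In nuclear RNA processing, Rbm27 was the member whose divergence passed the test. Rbm26 and Rbm27 are related proteins of a nuclear pathway that hands polyadenylated RNA to the exosome. Rbm27 measured 888, 856, 822, 896, 902, 899 and 837 at 37°C. It measured 733, 823, 801, 758, 752 and 680.0 at 32°C. All values at 32°C but that of 1 h lay below every value at 37°C. The divergence was -0.053 ± 0.012 per time point (adjusted p = 0.0462) and the late difference -0.27 ± 0.064 (adjusted p = 0.0597), with 5 of 6 pairs lower. The call was lost on leaving out any 1 time point other than 1 h, with adjusted p up to 0.181. It was also lost with a constant offset of 32°C added to the model (adjusted p = 0.604), with each array centred on its median (0.0585) and with all transcript clusters as units (0.0671).

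Its relative Rbm26 read 524, 506 and 450.1 in the late arrays of 32°C and between 567 and 605 at 37°C. The late difference of Rbm26 was -0.24 ± 0.078 (adjusted p = 0.139). Both relatives were thus lower in all 3 late pairs. At 0.5 h, too, Rbm26 (-0.28) and Rbm27 (-0.22) were lower, as were 23 of the 34 members in that pair. Rbm7, a subunit of another exosome adaptor, had a late difference of 0.080 and Rbm8a, a core protein of the exon junction complex that marks spliced mRNA, of 0.034. Rbm15 and Rbm15b recruit the enzyme that methylates adenosine in mRNA and had -0.13 and 0.056. The other cluster of Rbm15b gave -0.22, so its clusters disagree in sign. Rbm33, which takes part in nuclear mRNA export, had -0.056, and its 2 other clusters gave 0.052 and -0.15.

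The 3 nucleolar members had small positive late differences, and none passed the test. Rbm34 measured 452, 421, 421, 410.2, 409.6, 421 and 395 at 37°C, with its highest value at 0 h. At 32°C it measured 395, 407, 464, 426, 461 and 436. Rbm34 overlapped between temperatures, with late values at 32°C all above the 37°C value of their own time. Its late difference was 0.11 ± 0.069 (adjusted p = 0.438), and its slope at 37°C was -0.022 ± 0.010 per time point (adjusted p = 0.876), with a divergence of 0.023 ± 0.012. Rbm19, needed for making ribosomes, and Rbm28, whose yeast counterpart is needed for the same, had late differences of 0.099 ± 0.067 and 0.041 ± 0.062.

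Of the 8 members grouped here under mRNA stability and translation, 3 were below all 37°C arrays late and none passed the test. Members of other groups, such as Rbm5, Rbm6 and Rbm10, were below as well. Among all genes 7.79% were, and 13.8% of those above the median level. Rbm38, a p53 target that binds AU-rich and other elements in mRNA and changes its stability, read 464, 463, 402, 413, 435, 452 and 508 at 37°C. At 32°C it read 514, 447, 334, 316, 365 and 378. Its values were higher than at 37°C at 0.5 and 1 h and lower from 2 h on. The late difference was -0.40 ± 0.092 (adjusted p = 0.0538), close to that of Rbm10 in size but not called, and the divergence was -0.070 ± 0.017 per time point (adjusted p = 0.0526).

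Rbm45, an RNA-binding protein first described in the developing nervous system, measured 1126, 1057, 1082, 1056, 1056, 1141 and 1122 at 37°C. It measured 1091, 1053, 1069, 991, 869.7 and 807 at 32°C. After 2 h each value at 32°C was below the one before, and the late ones lay below all at 37°C. Its slope at 32°C was -0.078 ± 0.016 per time point (adjusted p = 0.0693), and Kendall's tau, the rank correlation with time, was -0.90 at 32°C (exact p = 0.00278, unadjusted, 7 arrays) and -0.048 at 37°C. The late difference was -0.32 ± 0.078 (adjusted p = 0.0624) and the divergence -0.057 ± 0.014 per time point (adjusted p = 0.0599). The 150 bases upstream of the gene are shown with the ETS core CGGAAG in capitals.
Rbm45 (chr2:76369809-76369958, plus strand): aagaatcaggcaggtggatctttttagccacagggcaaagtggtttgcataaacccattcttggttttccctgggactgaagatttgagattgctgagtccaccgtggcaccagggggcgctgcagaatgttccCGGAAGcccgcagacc
It held 1 CGGAAG and neither CCAAT nor GGGCGG.

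Among the single-stranded DNA and RNA binding proteins Rbms1, Rbms2 and Rbms3, the late values of Rbms3 were 1979, 1757 and 1636 at 32°C and lay below its 37°C range, between 1998 and 2186. Its late difference was -0.17 ± 0.076 (adjusted p = 0.264), while Rbms1 had -0.045 and Rbms2 0.042. Rbm47, a cofactor of mRNA editing from C to U, was below the median gene level and read 108, 116, 108, 102, 107, 109 and 100.0 at 37°C. At 32°C it read 105, 108, 129, 127, 108 and 103. Only the values of 2 and 4 h stood above the 37°C range, and the late difference was 0.088 ± 0.094 (adjusted p = 0.674), with a divergence of 0.022 ± 0.016 per time point. Rbm46 and Rbm44 are best known from germ cells and were dim. Rbm46 read 74.2, 68.8, 72.9, 74.4, 69.3, 73.5 and 63.3 at 37°C. It read 57.2, 73.9, 69.3, 70.4, 61.5 and 67.7 at 32°C. The 2 courses of Rbm46 overlapped, with a late difference of -0.046 ± 0.084, and Rbm44 had 0.069 ± 0.063.

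The less described members Rbm18 and Rbm43 had late differences of 0.059 ± 0.069 and -0.16 ± 0.085. Rbm43 was higher at 32°C by 0.33 at 2 h and differed by -0.34 on the log2 scale at 8 h. At 37°C it had the widest range of any member, 0.49 on the log2 scale over the 7 arrays.

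**Figure D3:**
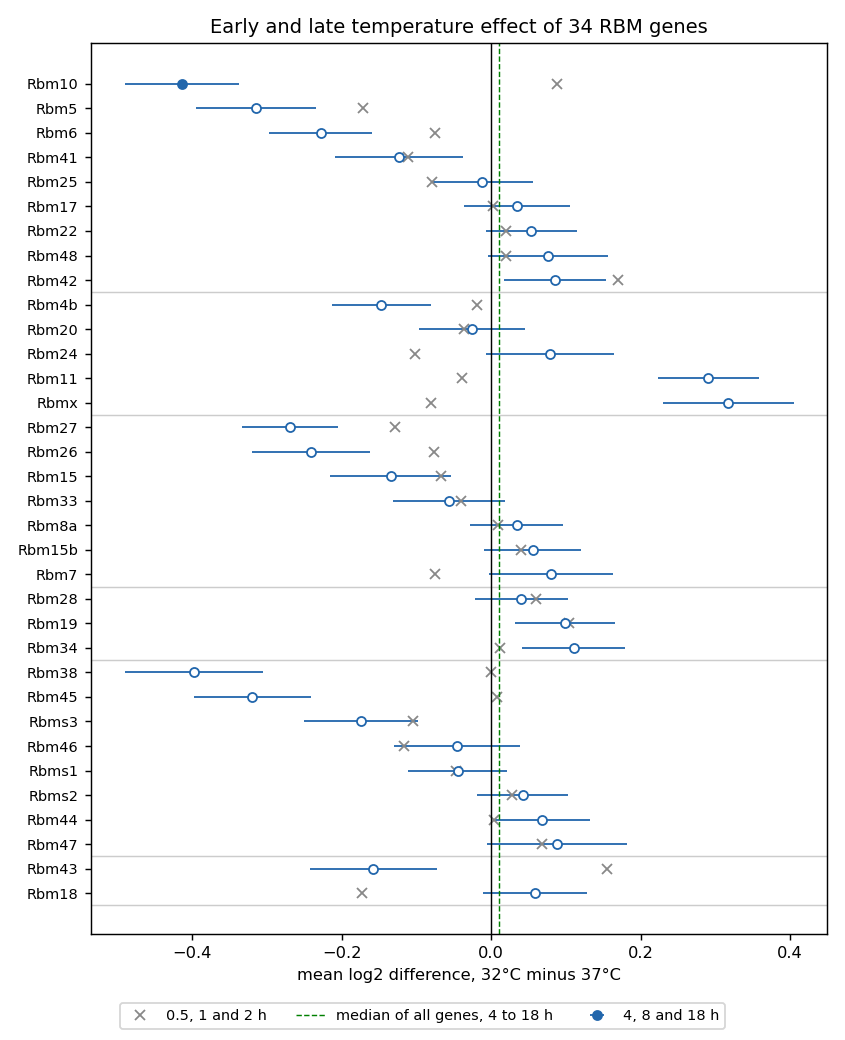
Mean log2 difference, 32°C minus 37°C (horizontal axis), for each of the 34 RBM genes (vertical axis, in role groups) over 4, 8 and 18 h (circles, with bars of 1 SE, filled where the adjusted p is under 0.05) and over 0.5, 1 and 2 h (crosses); the dashed line is the median of all genes late. Rbm10 has the only filled circle, at -0.41, and Rbmx and Rbm11 stand to the right at 0.32 and 0.29.

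The time courses were also tested one temperature at a time, as the study sought genes that change steadily with time. At 32°C no member passed, where 0.0451% of all genes rose and 0.0502% fell. The largest slopes of members were those of Rbm10 (-0.11 ± 0.022 per time point, adjusted p = 0.0693), Rbmx and Rbm38 (-0.085 ± 0.030, adjusted p = 0.212). At an unadjusted p under 0.05, 5 members had negative slopes (Rbm6, Rbm10, Rbm27, Rbm38 and Rbm45) and 3 positive ones (Rbm11, Rbm24 and Rbmx). That is 14.7% and 8.82% of the members, against 9.35% and 7.14% of all genes and 16.1% and 7.20% of those above the median level, where 5 and 2 of 28 members had them. At 37°C 0 of 19938 genes passed in either direction (0%), with 721 rising and 435 falling slopes at an unadjusted p under 0.05 and no member among them. An exact Kendall test of 7 arrays cannot give a p low enough for a gene to pass alone after adjustment over 19938 genes. Many genes in strictly rising or falling order would be needed, so a count of 0 cannot decide whether single genes changed steadily. The study applied Kendall's tau to probes instead and reported genes with near-monotonic courses at both temperatures. Exact Kendall tests at gene level called 0 genes in either course after adjustment, with a lowest adjusted p among members of 0.284 at 32°C. Unadjusted, they had 885 positive (4.44%) and 946 negative (4.74%) genes at 32°C, with 2 members in each direction (5.88%; Rbm11 and Rbmx, Rbm10 and Rbm45), and 504 and 286 at 37°C, with Rbm42 and Rbm34. The slopes at 37°C ran from -0.022 (Rbm34) to 0.041 (Rbm24), and that of Rbm46 was -0.020 ± 0.014 (adjusted p = 0.908).

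Partners of the RBM proteins were counted in lists drawn up by gene function. Of the 6 adenosine methylation genes measured, 1 passed, late: Mettl3, the catalytic enzyme, fell by 0.50 ± 0.067 (SE, n = 3 pairs, adjusted p = 0.0122), while Rbm15 and Rbm15b were not called. Of the 16 nuclear exosome genes, Zfc3h1, a scaffold of the pathway of Rbm26 and Rbm27, fell by 0.32 ± 0.060 (adjusted p = 0.0323) and its divergence fell by 0.063 ± 0.012 per time point (adjusted p = 0.0267). Of 8 exon junction complex genes, Acin1, a peripheral member, fell by 0.36 ± 0.068 (adjusted p = 0.0324). The divergences of Mettl3 (adjusted p = 0.0526) and Acin1 (0.0532) did not pass, and none of these partners passed over the 6 pairs. Among all genes, 0.802% were higher and 2.15% lower late, and 1.66% diverged downward. The calls of 1 gene per list were not tested against these shares. No gene was called among 26 of the early spliceosome, 31 of the active spliceosome, 9 of the minor spliceosome, 5 of paraspeckles, 23 hnRNP genes and 27 of ribosome assembly, in any of the 6 comparisons, and the log2 changes given for single partners are late ones unless called a divergence. Late medians of these 9 lists lay between -0.088 and 0.048, against 0.0099 for all genes. Of 15 further genes with related names outside the rule, Rbm12b2 fell by 0.62 ± 0.071 (adjusted p = 0.00713) and its divergence fell by 0.12 ± 0.012 per time point (adjusted p = 0.00325). Without the arrays of 8 h, 0 of 19938 genes passed late in either direction. The late calls of Mettl3, Zfc3h1, Acin1 and Rbm12b2 were therefore lost there, as was that of Rbm10.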

How the data were processed

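RNA was measured on 13 Affymetrix Mouse Gene 1.0 ST arrays, each of RNA pooled from 3 dishes. The authors deposited linear intensity values, 1 per transcript cluster and array, from 4.24 to 18146.4. Their summarization and normalization are not given in the sources available for this work, and log2 values were taken as deposited. Of 28853 clusters, 23410 were annotated, 1621 with several symbols were left out, and the brightest cluster of each of 19938 genes was used. limma 3.58.1 (lmFit and eBayes, R 4.3.3) was fitted over all genes, 2-sided, with time point as a block for the temperature effects and the divergence, and with the order of the time points (0 to 6) as the time scale. No array has a replicate, so p-values rest on the spread between time points and around fitted lines. Scripts were tested on simulated data. The members, role groups and lists were chosen with earlier results of these data known. Values by array are given for members past the adjusted p of 0.05 in any comparison, the 5 highest and 5 lowest by divergence, and the 3 largest slopes at each temperature; genes outside the family are named only from the lists, where past that threshold, with Cirbp, Rbm3 and Rbm39. Ranges of Rbm3, Rbm4b, Rbm6, Rbm26 and Rbms3 were added after their values were seen. Alternatives were other normalizations, an offset of 16, a filter on level, other cluster choices, each time point left out, no block for time point, a constant 32°C offset, the log2(h + 0.5) time scale and exact Kendall tests over 5040 orders. RefSeq promoters (GRCm38.p6) matched 29 of 34 measured members, 20 of them with 150 bases upstream of the whole annotated gene. Figures used matplotlib 3.10.9.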

Additional observations from a re-analysis of the deposited data

How the results depend on the processing

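For 54 values of members, 675 recomputed values were obtained under the alternatives. In 632 of these the direction and the side of the threshold were kept, 21 passed the threshold newly, 12 lost it and 10 changed sign. Many could not change direction: the late difference is the same with the filter on level, with clusters as units and without an early time point. The mean of clusters also leaves it the same for genes of a single cluster. All values but the late one of Rbm10 and the divergence of Rbm27 started uncalled, so the 632 do not measure stability. The late call of Rbm10 held in 8 of 12 alternatives (adjusted p from 0.0183 to 0.207) and the divergence call of Rbm27 in 6 of 14 (0.0275 to 0.604). The count of members called late, 1 in the report, became 2 with each array centred on its median (Rbm10 lower and Rbm11 higher), 4 with log2(value + 16), 5 among genes above the median level and 0 with all transcript clusters as units. It ranged from 0 (without 1, 8 or 18 h) to 3 (without 4 h) on leaving out a time point. For the divergence, 1 became 2 with quantile normalization, 0 with each array centred on its median, 4 with log2(value + 16), 4 among genes above the median level, 0 with all transcript clusters as units and 0 on adding a constant offset of 32°C, and it ranged from 0 to 2 (without 1 h) on leaving out a time point. At 32°C the slope called 2 members among genes above the median level and 0 otherwise. The filter on level and the clusters as units change both the number of features tested and the moderation over them. The causes of the changed counts were not tested. Signs changed for uncalled values near zero. Rbm15b late was -0.082 with the mean of its clusters, Rbm25 late was 0.019 with each array centred on its median and 0.00045 with the mean of its clusters, Rbm20 late was 0.0060 with centred arrays, and the divergence of Rbm42 was -0.039 on adding the offset. Leaving out a time point, the late difference ranged from -0.025 to 0.074 for Rbm17, from -0.11 to 0.038 for Rbm20, from -0.10 to 0.019 for Rbm33, from -0.12 to 0.060 for Rbm46 and from -0.0057 to 0.18 for Rbm48. For the 12 members with values by array, all 6 comparisons were recomputed, reported or not, and 38 of 930 values changed sign, with an adjusted p of at least 0.552. Here, too, part of the estimates could not change. Counts over all genes moved more. Late, 160 higher and 428 lower became 0 and 0 without 8 h, 20 and 47 without 18 h, 48 and 153 without 1 h, and 248 and 618 among genes above the median level. The divergence had 234 and 331, and 3 and 1 on adding the offset, 16 and 24 without 8 h, and 340 and 451 above the median level. The slope at 32°C had 9 and 10, against 61 and 150 above the median level and 1 and 1 with clusters as units. Over the 6 pairs 3 and 11 became 0 and 0 with quantile normalization. Leaving out 0 h cannot change the divergence, as that array stands alone in its block, and was not run for it. The pairs of 32°C and 37°C arrays of the same time were the block in the main tests; without that block, the comparison over the 6 pairs again called 0 members. With 1 array per group, small differences could not be told from the spread between time points, and dim members have the least signal over background, which was not given.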
